A study of Mus musculus with 24 samples.

Results

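The genes described here build and run the cilium, as named on the array: Foxj1, Spef1, Spef2 and every gene whose array name is Dnah, Dnahc, Dnaic, Dnalc, Dnali, Rsph, Tekt, Spag, Ift or Bbs followed by a number. These names picked 63 of the 36163 gene names on each array, carried by 89 of its 55681 non-control probes. The rule reads names and no measured values, but it was written with earlier results of these data known. A probe was counted as above background where the scanner software placed it well above background on at least 8 of the 15 arrays, which held for 79 member probes of 61 genes. Hippocampal RNA came from male C57BL/6 mice killed on P9, with 5 arrays in each of 3 groups. Control pups (Con) were left untreated, were housed with the dam and had minimal handling. MS2 and MS5 pups were given morphine at 2 or 5 mg/kg from P5. Either dose came with daily separation from the dam, in a warmer, and with brief exposures to nitrogen, each followed by oxygen, as a model of apnea. Contrasts with Con therefore span morphine, injection, separation, apnea and oxygen, whereas MS5 against MS2 differs in dose with the stress shared. Each array held the pooled left and right hippocampi of 1 pup, and treated and control pups shared home cages, so litter was not told apart from animal.

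A motile cilium beats because axonemal dyneins slide its outer microtubule doublets, under the control of the radial spokes and a central pair of microtubules. In the brain these cilia stand in tufts on ependymal cells, which line the ventricles, and Foxj1 is the transcription factor that switches on the genes of the motile axoneme. Intraflagellar transport (IFT) particles carry cargo along the axoneme and the BBSome, a coat of Bardet-Biedl syndrome (Bbs) proteins, moves membrane proteins. Both also serve the single immotile primary cilium that most neurons and glia carry.

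Regulatory factor X (RFX) proteins bind an X-box in promoters of ciliary genes, and stretches that hold it or its core letters are shown for 4 motile axoneme genes and for an IFT and a BBSome gene, the 2 kinds of gene described separately here. The stretches of Tekt4, Ift57 and Bbs7 hold an X-box, and those of Tekt1, Dnaic2 and Tekt2 hold the core alone. The stretches are RefSeq sequence of build GRCm38.p6, end at or before the transcription start site and are written 5′ to 3′ on the gene's strand. Capitals mark the core letters GTTGCC, read on either strand (GGCAAC on the other) and the X-box, here the letters GTNNCC and, after 2 free positions, their reverse complement GGNNAC, which overlaps the core in Ift57 and Bbs7.
Tekt1 (chr11:72361883-72361932, minus strand): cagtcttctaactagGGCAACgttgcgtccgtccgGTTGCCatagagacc
Dnaic2 (chr11:114727378-114727413, plus strand): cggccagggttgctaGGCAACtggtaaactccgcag
Tekt2 (chr4:126325690-126325799, minus strand): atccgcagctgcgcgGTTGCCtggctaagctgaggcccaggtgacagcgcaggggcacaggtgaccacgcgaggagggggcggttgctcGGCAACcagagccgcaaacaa
Tekt4 (chr17:25471415-25471458, plus strand): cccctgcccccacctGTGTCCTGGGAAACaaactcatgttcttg
Ift57 (chr16:49699192-49699254, plus strand): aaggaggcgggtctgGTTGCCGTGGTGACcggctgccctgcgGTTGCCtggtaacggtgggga
Bbs7 (chr3:36613482-36613525, minus strand): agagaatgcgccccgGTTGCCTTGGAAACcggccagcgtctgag

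In the 300-base windows from 250 bases before to 50 after the start, promoters were found for 50 member symbols, 54 promoters in all. The core GTTGCC stood in 10 of 31 motile axoneme promoters (32.3%) and in 8 of 17 IFT and Bbs promoters (47.1%), against 12.5% of all 32851 promoters. The X-box letters stood in 3 of 31 (9.68%) and 4 of 17 (23.5%), against 1.88% of all. The forkhead letters TGTTTAC, searched on both strands for Foxj1's family, stood in 2 of 31 motile axoneme promoters (6.45%) and 0 of 17 IFT and Bbs promoters, against 3.65% of all. A match is a match of letters only.

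Properties of some arrays touch these genes. The array of MS2 replicate 4 went against its tissue label: the median of 19 hippocampal neuron marker probes lay 1.88 below the control mean on the log2 scale (-1.88), against -0.26 to 0.13 on the 14 other arrays, and the median of 16 thalamus and hypothalamus marker probes lay 2.54 above it, against -0.22 to 0.97. The 0.97 and the -0.26 were both on MS5 replicate 8. On the controls the thalamus and hypothalamus median was at most 0.12. The array of MS5 replicate 9, labelled male, carried Xist, the transcript of the inactive X chromosome, at 10.40 against at most 6.04 on the others. The array of MS2 replicate 5 was dim, with a median spot signal of 58.2 against 121 to 154, and 67.1% of its spots were well above background against 72.5% to 79.0%. Many results below are also given without MS2 replicate 4 or MS5 replicate 9, but not every result that these arrays move. The arrays sat on 2 slides, each holding arrays of every group. MS2 replicates 4 and 5 and MS5 replicate 9 all sat on slide 2, which held no other MS2 array. Differences within slide 2 therefore cannot be told apart from the properties of these arrays.

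The table of log2 values deposited by the authors was compared in a limma fit of all 3 groups, and a probe was called by the study's own limits, over 1.5-fold with p (not adjusted) below 0.05. In MS5 against Con, 1 of the 89 member probes passed (Spef2, higher), where 0.228% of all 55681 probes did. In MS2 against Con and in MS5 against MS2, 0 members passed, where 0.0233% and 0.129% of all probes did. An unadjusted p under 0.05 at any fold was reached by 2 members in MS5 against Con, 2 in MS2 against Con and 3 in MS5 against MS2, beside backgrounds of 3.9%, 4.17% and 3.97%. After Benjamini-Hochberg adjustment over all probes 0 probes of the array passed in any of the 3 contrasts, and the smallest adjusted p among members was 1 in MS5 against Con, 0.97 in MS2 against Con and 1 in MS5 against MS2 (limma). The 5 arrays of 2 groups lay wholly apart for 1 member in MS5 against Con (Spef2), 1 in MS2 against Con (a Bbs7 probe) and 0 in MS5 against MS2, beside 0.828%, 0.702% and 0.621% of all probes.

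Below that threshold most motile axoneme probes had lower means in both treated groups, whereas the transport probes were split, a difference that was not tested. Of 46 motile axoneme probes above background (34 genes: Foxj1, dyneins, radial spokes, central apparatus and tektins), 39 had a lower mean in MS5 than in Con and 37 a lower mean in MS2, where 49.7% and 52.3% of all 41785 probes above background did. Their median log2 difference was -0.11 in MS5 and -0.12 in MS2, against 5e-04 and -0.0048 for all probes. The group medians were smaller than the spread among controls, whose 5 array medians ran from -0.19 to 0.12 around the control mean (SD 0.147). Without MS2 replicate 4 the median in MS2 was -0.06, with 35 of 46 lower, and without MS5 replicate 9 the median in MS5 was -0.08, with 38 of 46 lower. In MS5 against MS2, 26 of the 46 were lower, with a median of -0.0148, where 48.3% of all probes above background were lower. That median was -0.0577 without MS2 replicate 4 and 0.0178 without MS5 replicate 9. Against Con, the medians within slide 1 were -0.02 in MS5 and 0.02 in MS2. Within slide 2, whose only MS2 arrays were replicates 4 and 5, they were -0.20 and -0.31. The 26 IFT and Bbs probes (20 genes) split 11 lower and 15 higher in MS5 and 14 lower and 12 higher in MS2, with medians of 0.0084 and -0.02. Lower means were not particular to the axoneme. Of 19 hippocampal neuron marker probes, 16 were lower in MS5 (median -0.12) and 18 in MS2 (-0.32). Without MS2 replicate 4, 9 of these 19 were lower in MS2 (median 0.0025). Of 13 astrocyte marker probes, 7 were lower in MS5 and 4 in MS2.

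**Figure D1:**
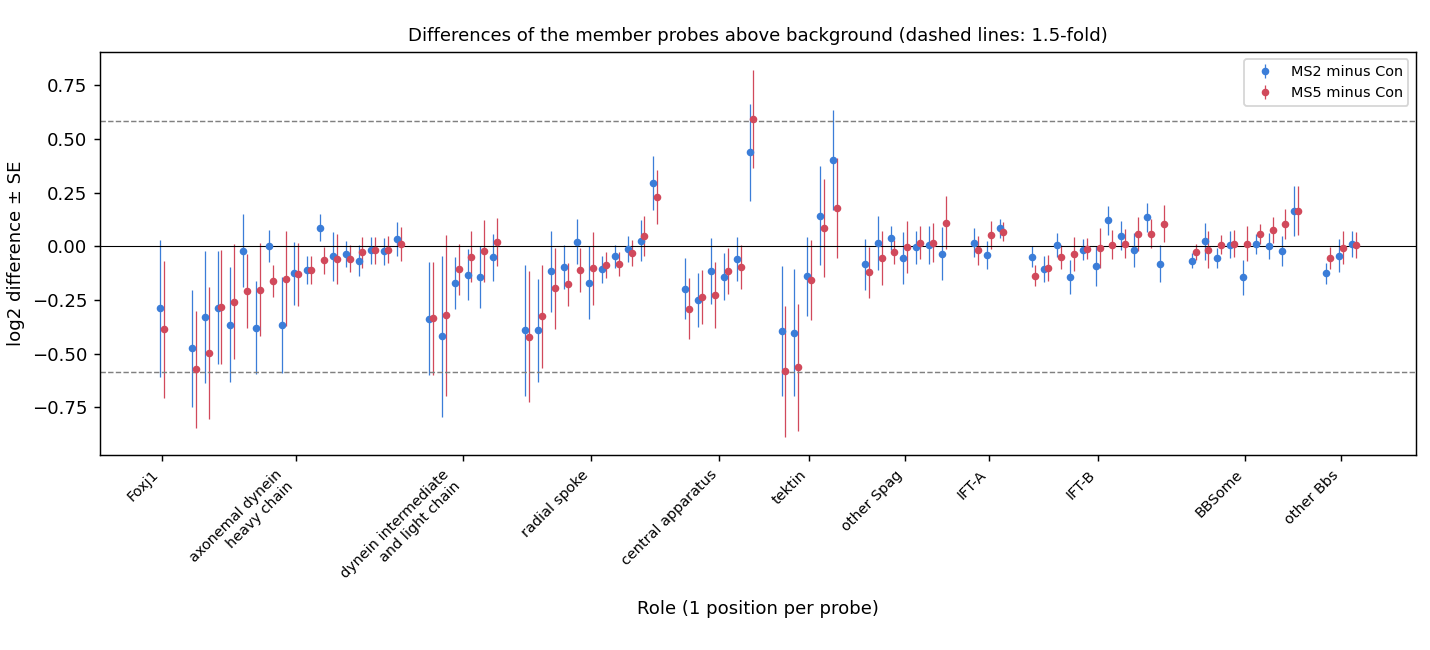
Log2 difference from Con (vertical axis, ± SE of the limma fit) of each of the 79 member probes above background, by role, with MS2 in blue and MS5 in red; both use the same 5 control arrays. Most motile axoneme probes sit below 0, some with error bars that reach it and others not, Spef2 sits highest at 0.59 in MS5, and the IFT and Bbs probes stay between -0.14 and 0.17.

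Foxj1, the master regulator of motile ciliogenesis, was read by 1 probe (chr11:116192214-116192273, build mm9). Its log2 level in Con replicates 15 to 19 was 10.26, 11.22, 11.11, 10.14 and 11.17. In MS2 replicates 1, 3, 4, 5 and 7 it was 10.83, 10.89, 9.94, 10.59 and 10.21, and in MS5 replicates 8, 9, 12, 13 and 14 it was 11.05, 9.56, 11.11, 10.37 and 9.89. The groups overlapped in part, with MS2 replicate 4 and MS5 replicates 9 and 14 below every control: controls fell into 3 high and 2 low arrays about 1 log2 unit apart, and MS5 held both the 2 arrays near the high controls and the lowest array of all. MS5 differed from Con by -0.39 ± 0.32 (SE; 95% interval -1.07 to 0.30; exact permutation p = 0.317, two-sided), and MS2 by -0.29 (exact permutation p = 0.381), with a limma adjusted p of 1 and 0.97. Without MS5 replicate 9 the MS5 difference was -0.18, and without MS2 replicate 4 the MS2 difference was -0.15. Within slide 1, which held both low controls, Foxj1 was 0.21 higher in MS5 than in Con. Within slide 2, which held MS5 replicates 9 and 14, the difference was -1.01, so the direction differed between slides.

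Axonemal dynein heavy chains are the motor subunits of the outer and inner arms. Of their 23 probes (12 genes), 17 were above background, and 16 of these had a lower mean in MS5 and 14 in MS2, with medians of -0.13 and -0.07. The most lowered was Dnahc11 (now Dnah11), an outer arm heavy chain. Its level was 8.16, 8.92, 8.93, 8.32 and 9.14 in Con, 8.45, 8.68, 7.72, 8.25 and 8.00 in MS2, and 8.60, 7.42, 8.79, 8.16 and 7.64 in MS5, in the replicate order given for Foxj1. Again 2 controls and 3 MS5 arrays were low and the groups overlapped. The MS5 difference was -0.57 ± 0.27 (SE; limma p = 0.0543, adjusted p = 1; exact permutation p = 0.119, two-sided) and the MS2 difference was -0.48 (exact permutation p = 0.0952). Without MS2 replicate 4 the MS2 difference was -0.35. The MS5 difference was -0.40 without MS5 replicate 9, and -0.09 within slide 1 against -1.08 within slide 2. It passed the threshold without Con replicate 15 or 18 or MS5 replicate 8 or 12, at -0.71, -0.67, -0.69 and -0.74. Dnahc6 and Dnahc2 followed the same arrays, with MS5 differences of -0.50 (exact permutation p = 0.143) and -0.28 (exact permutation p = 0.46). Dnahc1 was the least moved heavy chain, at 0.01 in MS5 (exact permutation p = 0.921).

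Some heavy chains had another pattern. Dnahc5, an outer arm chain, stood at 7.40 on MS2 replicate 4 and at 8.35 to 9.08 on the other 14 arrays, and the brighter Dnahc9 probe at 8.92 there against 9.55 to 10.39. The mean of either in MS2 therefore rested on that array. Dnahc7b had 4 probes, of which 2 differed between MS5 and MS2 by -0.16 and -0.15 (limma p = 0.049 and 0.0291, adjusted p = 1; exact permutation p = 0.0556 and 0.0635). Dnahc7a and Dnahc7b are close copies, and 1 probe named Dnahc7b lies at chr1:53634105-53634164 (mm9), nearer to the Dnahc7a probe at chr1:53754891-53754950 than to the other Dnahc7b probes at chr1:46181308 to 46430345. Probes of Dnahc10, Dnahc17, Dnahc6 and Dnahc8 that were not above background gave no usable level.

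The intermediate and light chains anchor and tune the dynein arms. All 6 probes were above background, and 5 had a lower mean in MS5 and 6 in MS2. Dnaic2, an outer arm intermediate chain, was 8.40, 9.07, 9.01, 8.49 and 9.18 in Con, 8.77, 8.69, 8.32, 8.46 and 8.23 in MS2, and 8.98, 7.58, 9.28, 8.42 and 8.23 in MS5. Its highest and its lowest array were both MS5 (replicates 12 and 9). The MS5 difference of -0.33 ± 0.26 (SE; exact permutation p = 0.341) shrank to -0.10 without MS5 replicate 9, and turned from 0.07 within slide 1 to -0.77 within slide 2. Dnali1, an inner arm light chain, had the widest spread of the members within groups (SD 0.514 in Con, 0.598 in MS2 and 0.810 in MS5, n = 5 each) and an MS5 difference of -0.32 (exact permutation p = 0.5). Dnaic1, the partner of Dnaic2, differed by 0.02 (exact permutation p = 0.881).

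Radial spoke proteins link the doublets to the central pair. Of 11 probes above background, 9 had a lower mean in MS5 and 8 in MS2. Rsph1, a spoke head protein, had 2 probes that moved alike, by -0.42 and -0.33 in MS5 and by -0.39 and -0.39 in MS2. The probe with the larger MS5 difference was at 10.16, 11.15, 10.87, 10.13 and 11.03 in Con, 10.73, 10.71, 9.61, 10.35 and 9.98 in MS2, and 10.78, 9.59, 10.98, 10.00 and 9.87 in MS5, so that 2 controls, 2 MS2 arrays and 3 MS5 arrays were low. Its MS5 difference had an exact permutation p = 0.214 and was 0.0064 within slide 1 and -0.94 within slide 2. It was -0.26 without MS5 replicate 9, and the probe's MS2 difference was -0.23 without MS2 replicate 4. Rsph6a, a spoke head paralog known from sperm, ran the other way: 6.66, 6.45, 6.60, 6.55 and 6.61 in Con, 6.66, 6.64, 7.44, 6.90 and 6.72 in MS2, and 6.89, 6.81, 6.63, 6.95 and 6.74 in MS5. All but 1 MS5 array lay above every control, and MS2 replicate 4 was highest. Apart from that array, these levels lay below the arrays' median log2 value of 7.32, so the probe was weak. MS5 was 0.23 higher (limma p = 0.0852; exact permutation p = 0.0159, two-sided), and MS2 0.29 higher (limma p = 0.0319, adjusted p = 0.97; exact permutation p = 0.0238), or 0.15 without MS2 replicate 4. With the scanner's processed signal in place of the deposited values the Rsph6a differences were 0.59 in MS5 and 0.63 in MS2, both past the threshold. Over all alternative settings they ran from 0.20 to 0.59 in MS5 and from 0.06 to 0.64 in MS2.

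Central apparatus genes held the single call. Spef2, a projection protein of the central pair, was read by 1 probe (chr15:9592491-9592550, minus strand, mm9). Its log2 level was 12.11, 11.76, 11.88, 11.61 and 11.88 in Con, 11.99, 11.80, 13.35, 11.99 and 12.29 in MS2, and 12.31, 12.64, 12.18, 12.42 and 12.65 in MS5. Every MS5 array lay above every control, while 3 of 5 MS2 arrays lay within the controls' range. MS5 was higher than Con by 0.59 ± 0.23 (SE; 95% interval 0.11 to 1.08; limma p = 0.0197, adjusted p = 1), and the exact permutation p was 0.00794 (two-sided), the smallest that 5 arrays against 5 can give. The call sat at the edge of the 1.5-fold limit. It was lost on fold size, at 0.57 with the processed signal, at 0.55 with the slide as a block, and at 0.53 to 0.57 without Con replicate 16 or 18 or MS5 replicate 9 or 14. The difference was 0.50 within slide 1, under the fold limit, and 0.67 within slide 2, where limma's p missed its limit.

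In MS2, Spef2 was 0.44 higher (exact permutation p = 0.119), but 0.17 without MS2 replicate 4. That array, with its low hippocampal neuron markers, had the highest Spef2 level, and MS5 replicates 9 and 14, with the lowest choroid plexus markers, had the highest in MS5. The part of either in the Spef2 difference was not tested. Leaving out MS2 replicate 4 put MS5 0.42 above MS2, against 0.15 with it (exact permutation p = 0.667). The other central apparatus genes did not share the rise. Spef1, which bundles the central pair's microtubules, was at 13.09, 13.22, 13.15, 13.30 and 13.25 in Con, at 13.17, 13.20, 12.53, 13.28 and 13.12 in MS2, and at 13.05, 13.15, 13.11, 13.08 and 13.05 in MS5. The MS5 arrays lay in a narrow band from 13.05 to 13.15, partly below the lowest control at 13.09. The MS5 difference was -0.12 (limma p = 0.302, exact permutation p = 0.0317, two-sided). Spag6 (now Spag6l), Spag16 and Spag17, which build the central pair's projections, had lower means in MS5, at -0.29 for Spag6 (exact permutation p = 0.103), -0.23 for both Spag16 probes (0.135 and 0.206) and -0.10 for Spag17 (0.31).

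Tektins are filaments inside the doublet wall. Tekt1, carried by 2 neighbouring probes, had MS5 differences of -0.58 ± 0.30 and -0.56 ± 0.30 (SE; limma adjusted p = 1; exact permutation p = 0.143 and 0.135), while MS2 differed by -0.39 and -0.40. The first was at 10.93, 11.52, 11.50, 10.94 and 11.53 in Con, at 11.23, 11.40, 10.07, 11.01 and 10.76 in MS2, and at 11.24, 9.91, 11.51, 10.68 and 10.17 in MS5. The groups overlapped, with 3 MS5 arrays below every control and 2 inside the controls' range. Without MS5 replicate 9 the first probe's MS5 difference was -0.38, and within slides it was -0.16 and -0.99. Its MS2 difference was -0.19 without MS2 replicate 4. Tekt4 differed by -0.16 (exact permutation p = 0.468). Tekt2 and Tekt5 stood highest on MS2 replicate 4 (9.06 and 9.71, against at most 8.50 and 8.99 elsewhere), and Tekt3 was not above background.

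**Figure D2:**
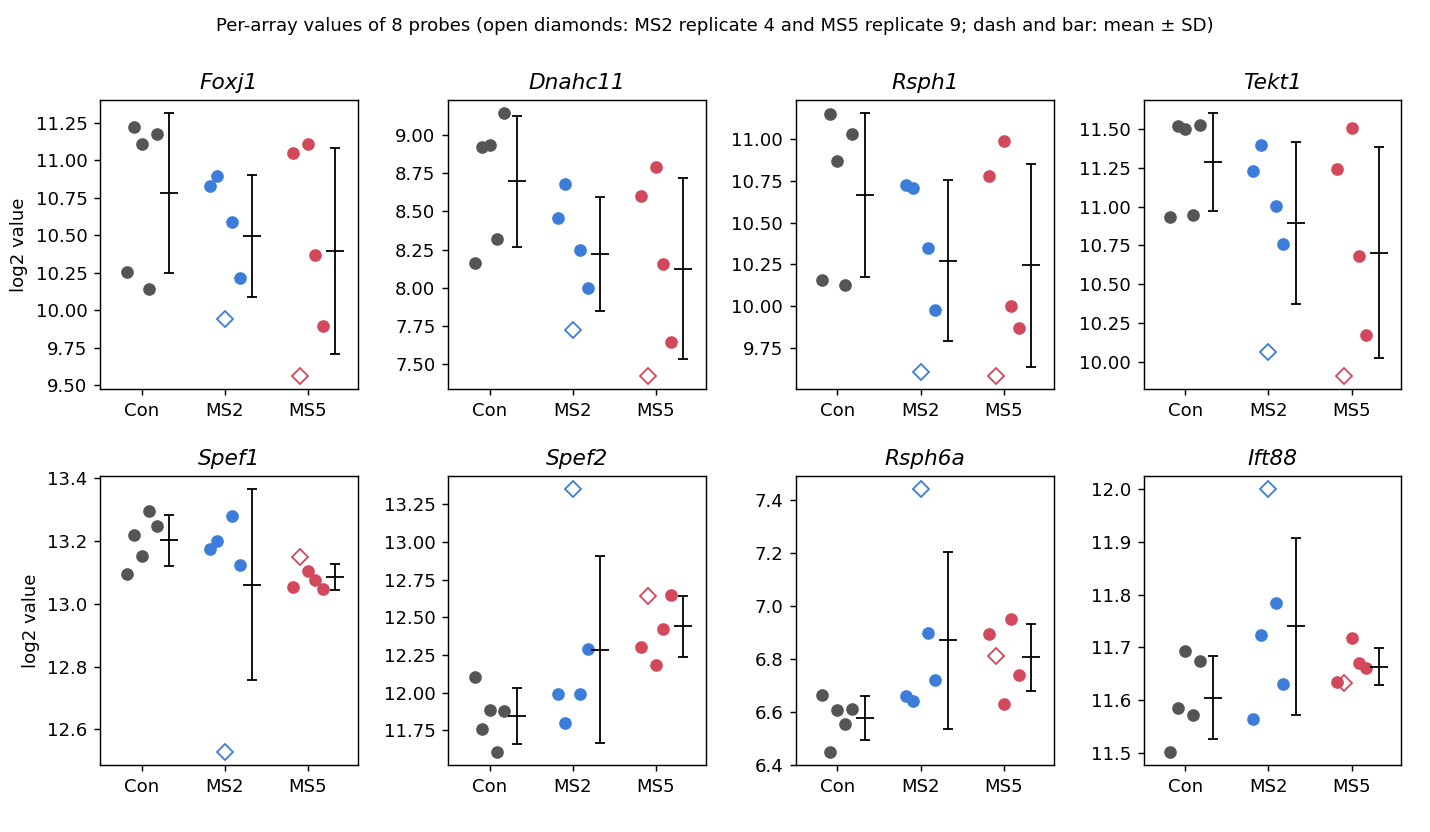
Deposited log2 value (vertical axis, range set per panel) of 8 member probes on each array, by group, with the group mean and SD (n = 5) beside the points; open diamonds mark MS2 replicate 4 and MS5 replicate 9. Foxj1, Dnahc11, Rsph1 and Tekt1 repeat 1 pattern of 2 low and 3 high controls, with MS5 replicate 9 lowest, whereas all 5 Spef2 values in MS5 lie above the controls.

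Many motile axoneme probes were low on the same arrays, in controls and treated groups alike. MS5 replicate 9 was the lowest of the 15 arrays for 18 of the 46 probes, and for 2718 of all 41785 probes above background. MS2 replicate 4 was the lowest for 12 of the 46, and for 7864 of all. It was also the highest array for 6 of the 46, and for 7106 of all. Con replicates 15 and 18, picked after their values were seen, were the 2 lowest controls for 29 of 46 probes (63.0%), against 4 of 26 IFT and Bbs probes (15.4%) and 12.7% of all probes above background. The same held for 34 of 49 probes of other axoneme genes (69.4%), 10 of 16 ependymal (62.5%) and 30 of 34 choroid plexus marker probes (88.2%), so the order was not particular to the members. Over the 15 arrays, 17 of the 45 other motile axoneme probes had a Pearson's r with Foxj1 over 0.8, against 0 of 26 IFT and Bbs probes and 1.12% of all. The median r was 0.57 for the motile axoneme members, 0.81 for other axoneme genes, 0.78 for ependymal and 0.76 for choroid plexus markers. Rsph1 (0.98 and 0.96), Tekt1 (0.96 and 0.95), Dnahc2 (0.96), Dnali1 (0.96) and Dnahc11 (0.96) were the most alike, while Spef2 (-0.61), Dnahc7a (-0.63) and Tekt5 (-0.71) ran against it. These correlations describe 15 arrays that share slides and groups. With group means removed the median r of the motile axoneme probes was 0.57, and with them kept it was also 0.57. Within-group SDs had a median of 0.246 for the motile axoneme probes, 0.107 for the IFT and Bbs probes and 0.128 for all probes.

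**Figure D3:**
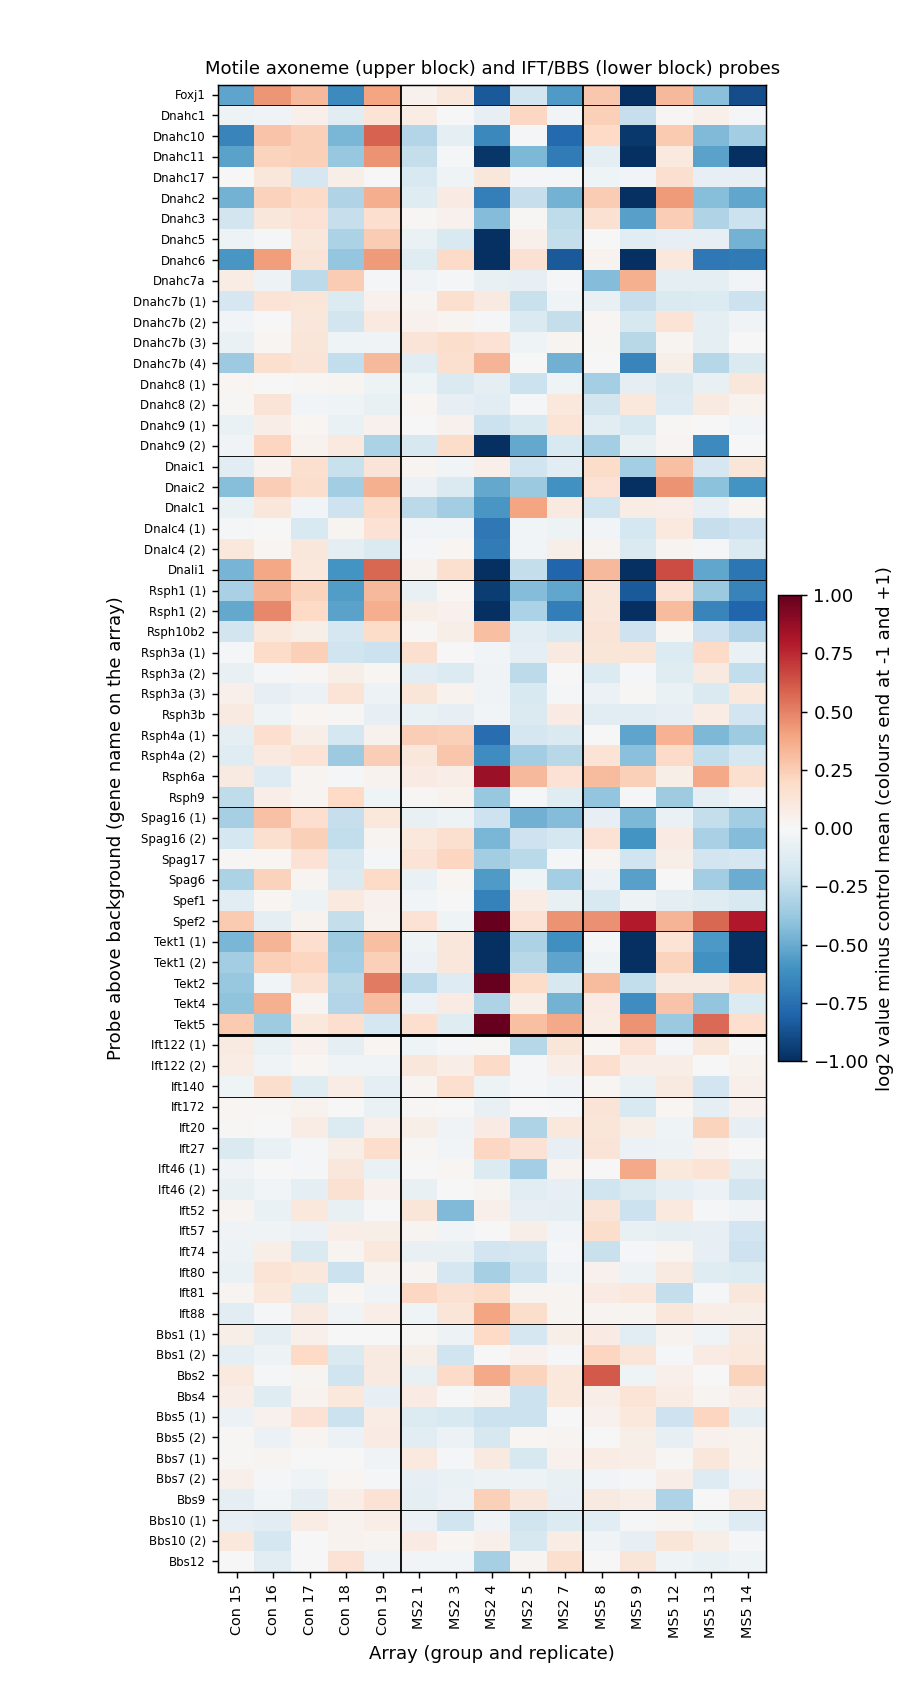
Deviation of each probe's log2 value from its control mean (colour, red higher and blue lower, ending at -1 and +1) for the 46 motile axoneme probes (above the thick line) and 26 IFT and Bbs probes (below it) on the 15 arrays. Blue columns recur at Con replicates 15 and 18, MS2 replicates 4, 5 and 7 and MS5 replicates 9, 13 and 14 for the axoneme probes and fade out below the line.

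Markers of the cells that carry motile cilia moved in part with the same arrays. All 16 ependymal marker probes (14 genes) were above background, and their mean log2 level ran from 11.66 to 12.18 in Con, 11.43 to 12.09 in MS2 and 11.23 to 12.14 in MS5. Their median deviation was lowest on MS5 replicate 9 (-0.86), MS2 replicate 4 (-0.79) and MS5 replicate 14 (-0.58), and also negative on Con replicates 15 (-0.34) and 18 (-0.31). Ccdc153 and Tmem212, which are ependymal, differed by -0.38 ± 0.41 and -0.52 ± 0.39 (SE) in MS5, and 1 of the 16 probes, Mia1, passed the threshold (-0.76 ± 0.31). Of the 16 probes, 11 had a lower and 5 a higher mean in MS5 (up to 0.21), and 12 a lower and 4 a higher mean in MS2. Over the 15 arrays 8 of the 16 had an r with Foxj1 over 0.8. Tppp3 and both Nnat probes ran against it (r = -0.48, -0.25 and -0.35). The list's median difference in MS5 was -0.34, or -0.13 without MS5 replicate 9. In MS2 it was -0.26, or -0.15 without MS2 replicate 4. Choroid plexus markers, for the tissue that secretes the ventricular fluid, fell further: 34 of 34 probes had a lower mean in MS5 and 28 passed the threshold, where 0.228% of all probes did. Their median was -1.15 (-0.93 without MS5 replicate 9), with a mean log2 level of 10.30 to 11.15 in Con, 10.32 to 10.91 in MS2 and 8.35 to 10.64 in MS5. This list holds genes that the study reported as lower on these same arrays, among them Aqp1, Calml4, Cldn2, Folr1 and Kl. Its count is therefore not an independent result. On Foxj1's lowest array, MS5 replicate 9, their median deviation was -1.91, and on MS5 replicate 14 it was -2.43. What these markers contribute to the axoneme differences was not tested, and in bulk RNA fewer ciliated cells in a sample and less RNA per cell cannot be told apart.

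**Figure D4:**
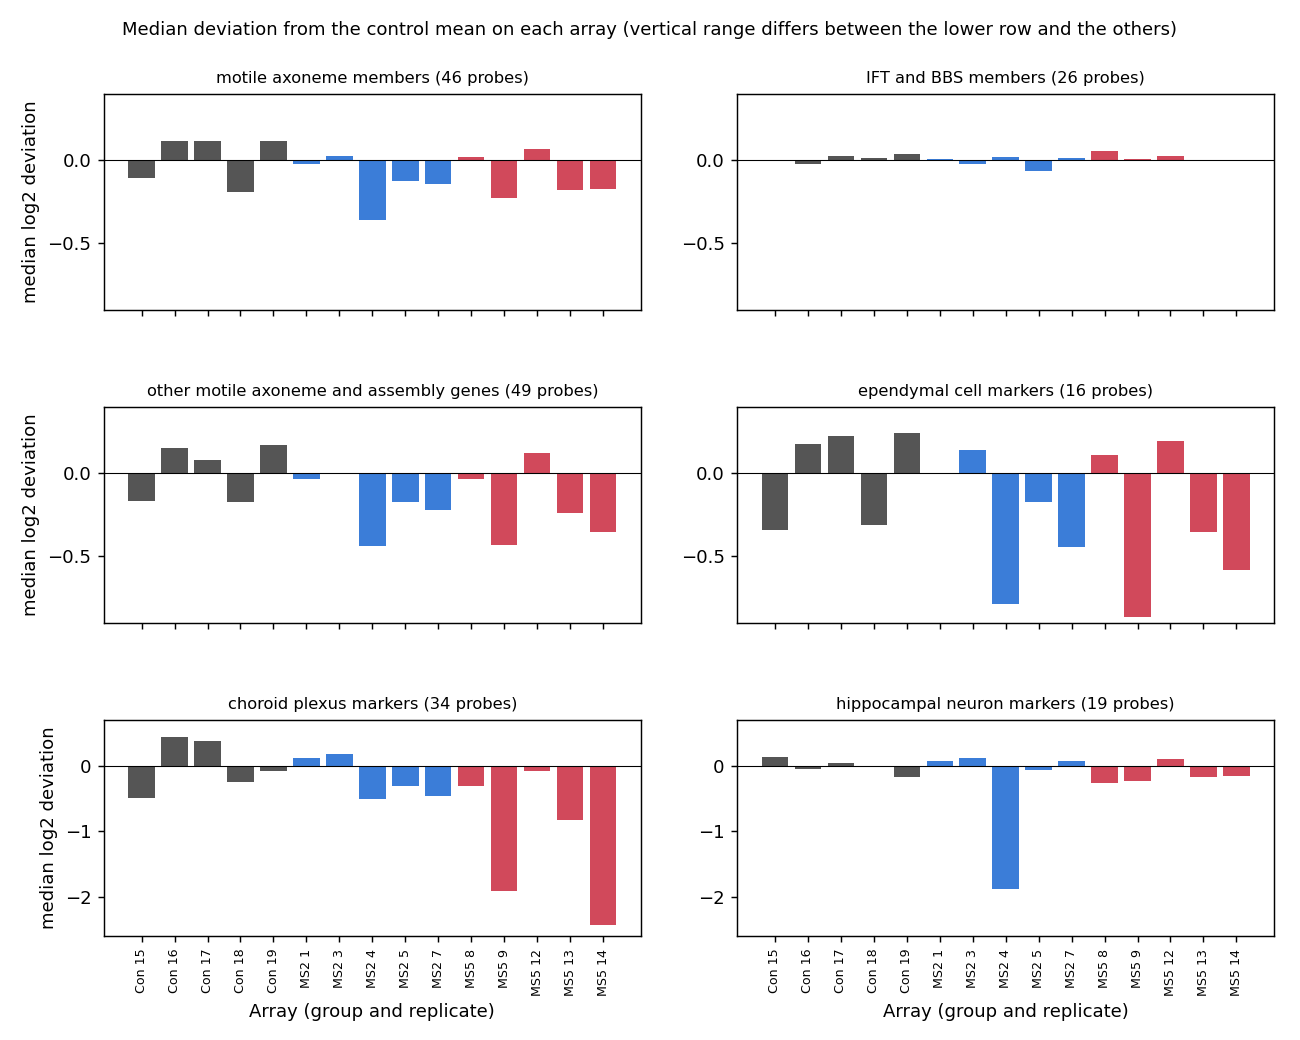
Median log2 deviation from the control mean (bars, starting at 0) on each array for 2 groups of members and 4 marker or pathway lists, with Con in grey, MS2 in blue and MS5 in red. The motile axoneme members, the other axoneme genes and the ependymal markers dip on the same arrays, the IFT and Bbs members stay between -0.07 and 0.06, and the hippocampal neuron markers dip to -1.88 on MS2 replicate 4.

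The transport genes stayed close to Con. IFT-A carries cargo back from the tip and IFT-B carries it outward. The 3 IFT-A probes (Ift122 and Ift140) differed from Con by -0.02 to 0.07 in MS5, and the 11 IFT-B probes by -0.14 to 0.11. Ift88, a core IFT-B subunit, was at 11.50, 11.59, 11.69, 11.57 and 11.67 in Con, at 11.56, 11.72, 12.00, 11.78 and 11.63 in MS2, and at 11.63, 11.63, 11.72, 11.67 and 11.66 in MS5. All groups overlapped, and the MS5 difference was 0.06 with a 95% interval of -0.09 to 0.20. The 2 Ift46 probes went opposite ways. The first was at 13.29, 13.34, 13.27, 13.52 and 13.41 in Con and at 13.17, 13.22, 13.28, 13.31 and 13.19 in MS5, a difference of -0.14 ± 0.05 (SE; limma p = 0.0158, adjusted p = 1; exact permutation p = 0.0397, two-sided) with overlapping groups. The second differed by 0.11 in MS5 and was 0.19 higher in MS5 than in MS2 (limma p = 0.0454; exact permutation p = 0.127). A gene whose probes disagree has no settled direction.

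BBSome and other Bbs probes were as close. The 9 BBSome probes differed by -0.03 to 0.17 in MS5, 7 of them higher, with Bbs2 at 0.17 (exact permutation p = 0.27) and a single high array, MS5 replicate 8 at 10.02 against 9.21 to 9.79 elsewhere. The member whose MS2 and Con arrays did not overlap was a Bbs7 probe. It was at 10.75, 10.68, 10.66, 10.72 and 10.69 in Con and at 10.61, 10.63, 10.65, 10.65 and 10.62 in MS2, so every MS2 array lay below every control, with a mean difference of -0.07 (limma p = 0.0886; exact permutation p = 0.00794). Groups lying apart fix this permutation p at its smallest value. The probe was named in part for lying apart, as 0.702% of all probes did in this contrast. The second Bbs7 probe did not share the separation, with 0.01 in MS2 (exact permutation p = 0.881). Bbs10, a chaperonin-like protein needed to assemble the BBSome, differed in MS2 by -0.13 at 1 probe (limma p = 0.0252, adjusted p = 0.97; exact permutation p = 0.0556) and by 0.01 at the other (0.762).

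The sperm-associated antigens outside the central apparatus are a mixed group by name. Of 9 probes 7 were above background, and their MS5 differences ran from -0.12 to 0.11. Spag8 had a Foxj1-like pattern over the arrays (r = 0.92), whereas Spag5, a spindle protein, and Spag9, a kinase scaffold, differed by 0.02 and -0.03 in MS5. Spag11a and Spag11b, which resemble beta-defensins, had 1 of 3 probes above background, and Spag1, a dynein assembly factor, was 0.11 higher (exact permutation p = 0.0714, two-sided).

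Genes of the same pathways outside the naming rule were read from lists. Of 49 probes above background for other motile axoneme and assembly genes, 45 had a lower mean in MS5 and 47 in MS2, with medians of -0.18 and -0.19, and 0 passed the threshold in either contrast. Without MS2 replicate 4 the MS2 median was -0.10, and without MS5 replicate 9 the MS5 median was -0.13. Dynlrb2, a dynein light chain, had the largest r with Foxj1 in this list (0.98) and an MS5 difference of -0.59 ± 0.36 (SE). Hydin, a central pair protein, differed by -0.22 ± 0.22 and -0.13 ± 0.14 (SE) at 2 probes. Of 38 probes for other IFT, BBS and ciliary motor genes 24 were lower in MS5 and 26 in MS2, with medians of -0.0085 and -0.03 and 0 past the threshold. In MS2, 6 of these 38 had an unadjusted limma p under 0.05, beside 4.17% of all probes. Of the 38, 2 lay wholly below Con, beside 0.702% of all probes with groups apart in either direction. MS2 replicate 4 was the lowest array for 16 of the 38, and for 7864 of all 41785 probes above background. Without MS2 replicate 4 the MS2 median of this list was -0.03, with 27 of 38 lower. The difference between the axoneme and transport lists was not tested. Of 20 probes for multiciliogenesis regulators 16 were lower in each treated group, with medians of -0.10 and -0.12 and 0 past the threshold. Among these Ccno, which drives centriole amplification, differed by -0.42 ± 0.20 (SE), and Ccdc67 (Deup1), part of the deuterosome, by -0.17 to -0.40 at 3 probes, each with a limma adjusted p of 1. Rfx2 differed by -0.22 ± 0.11 (SE), and Rfx3, the RFX factor of ependymal cilia, by -0.03 to -0.11 at 3 probes.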

How the data were processed

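RNA from 15 hippocampal samples was analysed on 1-colour Agilent arrays. Deposited were the scanner's intensity values of 62976 spots per array and a table of log2 values that the authors had background-adjusted with normexp and quantile normalized. These log2 values were used as deposited for the 55681 non-control probes and could be rebuilt from the intensity files to within 5e-09. Quantile normalization sets every array to 1 distribution, and normexp with an offset of 50 draws low probes together, so small levels understate fold changes. Micro RNA arrays were not used here.

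R 4.3.3 and limma 3.58.1 (lmFit, eBayes) fitted all 15 arrays by group, with Benjamini-Hochberg adjustment over all probes; limma's p is unadjusted unless called adjusted. Exact permutation tests used all 252 assignments of 5 against 5 arrays. The number of arrays limits the precision, and labels do not tie arrays to litters. Array names were updated through RefSeq accessions for 77 of the 89 member probes. Probe positions are those of the array files (mm9). Whether a probe lies in coding or untranslated sequence is not given in the sources used here.

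Members, pathway lists and marker lists were chosen with earlier results of these data known. Named probes were Foxj1, Spef1 and Spef2, those past the threshold, those above background with groups apart, the highest and lowest MS5 difference of each role, and genes whose probes disagreed by over 0.2 either way. The other Dnahc genes, Dnali1, the other Spag genes, Tekt2, Tekt3, Tekt4, Ift88, the second probes and the list genes were named after their values were seen. Alternatives were spots averaged from the scanner intensities, an offset of 0, the processed signal scaled to the 75th percentile, array weights, slide as a block and each slide alone, a stricter filter (all arrays of a group well above background), only the groups compared, the mean over probes of a gene, and each array left out. Leaving out MS2 replicate 4 and MS5 replicate 9 together was chosen after seeing the data. The fit was tested on simulated data.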

Additional observations from a re-analysis of the deposited data

Results flagged for a closer look

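In 72 groups of 5 values, those of the named probes and of the medians of both member groups, 2 held an array far from the other 4, where chance gives about 1 in 20. Spef1 stood at 12.53 on MS2 replicate 4, the array with low hippocampal neuron markers, with the gap to the nearest MS2 array taking 0.795 of the group's range. A Bbs10 probe stood at 7.70 on MS2 replicate 5, the array with the lowest median spot signal, with a gap of 0.745 of the range. Neither was tested for a cause.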

How the results depend on the processing

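The count of members past the threshold in MS5 against Con, 1 in the reported fit (Spef2), was 4 with array weights (Dnahc11, Spef2 and both Tekt1 probes), 2 within slide 2 (Dnahc11 and an Rsph1 probe), and 0 with the slide as a block, within slide 1, or without MS2 replicate 4 and MS5 replicate 9 together, a setting chosen after seeing the data. In MS2 against Con, 0 became 1 with an offset of 0 (Tekt3, whose probe was not above background) and with the 75th percentile scaling (Rsph6a), and 5 within slide 2. The only MS2 arrays of slide 2 were replicates 4 and 5. In MS5 against MS2, 0 became 1 within slide 2 (Dnahc9). Medians that moved beyond the control spread were -0.3071 for the motile axoneme in MS2 within slide 2, and 0.0432 (MS5 against Con, slide 1) and 0.0588 (MS5 against MS2, slide 2) for IFT and Bbs probes. With each array left out in turn the counts ran from 0 to 4 in MS5 against Con and 0 to 1 in MS2 against Con (1 without Con replicate 15), and stayed at 0 in MS5 against MS2. The motile axoneme median ran from -0.1524 to -0.0847 in MS5 and from -0.1489 to -0.0571 in MS2. The count of 4 came without MS5 replicate 8 or 12 (Spef2, Dnahc11 and both Tekt1 probes, all lower but Spef2), a count of 3 came without Con replicate 15, and Spef2 lost its call without Con replicate 16 or 18 or MS5 replicate 9 or 14. The cause of these shifts was not tested. No paired analysis was possible because the groups share no replicate numbers. Slides hold 2 or 3 arrays of a group, so within-slide values are imprecise, and signal over background leaves 10 of the 89 member probes without a usable level.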
